A study of Mus musculus with 6 samples.

Results

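Nkx6-2, Emx2, Lhx2, Meis2, Zic1, Pax6, Nr2f1, Otx1 and Lmo1 are genes of regional patterning, 9 of the 32285 genes counted. They were chosen by name, with earlier results of these data known. They were followed in single astrocytes sorted from the amygdala of young adult wild-type mice, labelled as male and of the C57BL/6N strain. Tissue was taken 90 min after behaviour, and inhibitors of transcription and translation were present during dissociation. In the NoFC group the mice explored the conditioning chamber without a foot shock, and in the FC group they received foot shocks there. In the NoFR group the conditioned mice stayed in the home cage on the next day, and in the FR group they were returned to the chamber for fear recall. The paper places NoFR tissue a day after conditioning, so the NoFR and FC groups also differed in the time since the shocks. Cells were sorted with antibodies that included ACSA-2, which binds ATP1B2, and carried hashtag antibodies that mark the mouse of origin. Each of the 3 gene expression libraries mixed mice of several groups, so a library is a replicate of the cell preparation and not of a condition.

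Among 13546 barcodes, 8757 were taken as astrocytes because they held at least 20 unique molecular identifiers (UMIs) of the glutamate transporters Slc1a2 and Slc1a3 and at most 3 UMIs of the mural genes Vtn and Rgs5. These were 3557, 2503 and 2697 cells in libraries 1, 2 and 3, with medians of 9667, 10281 and 9832 UMIs per cell. A reference class of 2260 pericytes, with at least 10 UMIs of Vtn and Rgs5 and at most 5 of Slc1a2 and Slc1a3, had medians between 4833 and 5206 UMIs. Summed over 8 further astrocyte markers, the astrocytes held 7931 to 7995 CPM (UMIs of a gene or list per 1000000 UMIs of the class) and the pericytes 724 to 791 CPM. Summed over 6 further pericyte markers, the pericytes held 6421 to 6648 CPM and the astrocytes 74.2 to 80.5 CPM. Most of each lower sum came from 1 gene, Atp1b2 with 666 to 696 CPM in pericytes and Pdgfrb with 70.1 to 74.5 CPM in astrocytes. RNA of Atp1b2, the gene of the sorting antigen, was found in 90.7–92.7% of the pericytes and 89.2–91.0% of the astrocytes, so this RNA did not separate the classes. These are cells that had passed the sort, and the counts do not measure the surface protein. No pair of libraries shared more than 8 barcodes.

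Patterning transcription factors are switched on in bands of the early neural tube, where each gives progenitors a position and a fate, and glia derived from those progenitors can keep part of that code. Emx2, Pax6 and Lhx2 act in the dorsal telencephalon, which forms the cortex, Nkx6-2 is a homeodomain repressor best known from the ventral neural tube, and Zic1 is a zinc-finger factor of the dorsal midline and meninges. The amygdala draws on both pallial and subpallial sources and lies close to the hypothalamus and the cortex.

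The 9 genes lie on 6 chromosomes of the mouse genome (GRCm38). Nkx6-2 (ENSMUSG00000041309) spans chr7:139579376-139582797 on the minus strand and Lmo1 (ENSMUSG00000036111) spans chr7:109138572-109175207 on the minus strand. Lhx2 (ENSMUSG00000000247) spans chr2:38339281-38369733 on the plus strand. On the same chromosome, Pax6 (ENSMUSG00000027168) spans chr2:105668900-105697364 on the plus strand and Meis2 (ENSMUSG00000027210) spans chr2:115863064-116065839 on the minus strand. Emx2 (ENSMUSG00000043969) is at chr19:59458372-59465357 on the plus strand, and Zic1 (ENSMUSG00000032368) is at chr9:91358058-91365810 on the minus strand. Nr2f1 (ENSMUSG00000069171) is at chr13:78188973-78199757 and Otx1 (ENSMUSG00000005917) at chr11:21994764-22002897, each on the minus strand. All but Meis2 and Otx1 overlap a gene annotated on the opposite strand, Inpp5a for Nkx6-2, Emx2os for Emx2, A830082K12Rik for Nr2f1 and Zic4 for Zic1 among them. No strand setting was stated for the counting, so it is not known whether reads were kept apart where these genes overlap.

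The 250 bases before a RefSeq start site are given for the 3 genes on which the co-detection results turn. They are on the strand of the gene and on the same build (GRCm38.p6). The windows are chr7:139582798-139583047 for Nkx6-2, chr2:38339031-38339280 for Lhx2 and chr7:109175208-109175457 for Lmo1. Lhx2 and Lmo1 each have 2 RefSeq entries, of which the first is printed.
Nkx6-2: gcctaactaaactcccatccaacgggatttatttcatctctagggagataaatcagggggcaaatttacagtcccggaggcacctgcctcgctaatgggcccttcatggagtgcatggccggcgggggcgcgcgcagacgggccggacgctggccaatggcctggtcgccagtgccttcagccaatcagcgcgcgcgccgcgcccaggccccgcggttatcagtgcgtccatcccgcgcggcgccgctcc
Lhx2: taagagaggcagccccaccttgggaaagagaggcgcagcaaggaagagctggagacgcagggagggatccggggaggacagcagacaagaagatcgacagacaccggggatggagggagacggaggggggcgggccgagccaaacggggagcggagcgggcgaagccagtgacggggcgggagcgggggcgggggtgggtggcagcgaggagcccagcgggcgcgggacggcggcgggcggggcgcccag
Lmo1: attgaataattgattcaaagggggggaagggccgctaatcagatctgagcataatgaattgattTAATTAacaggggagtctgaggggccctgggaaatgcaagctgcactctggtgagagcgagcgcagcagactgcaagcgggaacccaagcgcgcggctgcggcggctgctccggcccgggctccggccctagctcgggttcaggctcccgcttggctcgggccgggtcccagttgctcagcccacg
Capitals mark TAATTA, the core letters bound by many homeodomains. It was searched on both strands together with TGACAG, a core of MEIS factors, and AGGTCA, a core of nuclear receptors. TAATTA stood in the Lmo1 window and in 4.84% of 32851 mouse promoter windows of the same length. TGACAG and AGGTCA stood in none of the 3 windows printed, against 15.9% and 14.0% of all windows, and a missing match says only that these letters are not in the window. The GC content was 65.2% for Nkx6-2, 72.8% for Lhx2 and 61.2% for Lmo1, above the median of 52.4% over all windows. The second entries had 68.4% for Lhx2 and 72.0% for Lmo1.

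To compare how often each factor was found at equal depth, every cell was thinned to 4000 UMIs, which kept 3268, 2315 and 2441 astrocytes and 639, 530 and 540 pericytes. Meis2, a TALE homeodomain partner of Pbx factors, was the most often found, in 59.0%, 59.3% and 57.7% of the astrocytes of libraries 1, 2 and 3. Nr2f1, the orphan nuclear receptor COUP-TFI, followed with 45.6%, 45.8% and 47.4%. Lhx2, a LIM-homeodomain factor, was in 41.1%, 42.7% and 42.2%. These 3 ranges did not overlap, so the order of the upper end held in each library.

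Pax6, a paired-domain factor, was found in 23.7% ± 0.872 of the astrocytes (SD, n = 3 libraries) and Emx2 in 22.4% ± 1.30, a difference of means within the spread between libraries. Within each library Pax6 was above Emx2, at 23.3%, 24.7% and 23.1% against 21.3%, 23.8% and 22.1%. In library 3 this order was reversed at 2000 UMIs (11.4% against 12.1%) and at 8000 UMIs (37.7% against 38.3%). Lmo1, a LIM-only protein that acts as a cofactor and does not itself bind DNA, was in 15.5% ± 0.887. Nkx6-2 was in 13.8%, 13.0% and 14.3% and Otx1, a forebrain homeodomain factor, in 10.0% ± 0.116. The highest Nkx6-2 share was below the lowest Lmo1 share of 14.6% by less than the spread of either gene. The 95% Wilson interval of a share in a single library was at most 4.06 percentage points wide in astrocytes and 7.95 in pericytes, and covers counting error only. Without thinning the same shares were higher for every factor, at 78.4% for Meis2, 71.4% for Nr2f1, 64.0% for Lhx2, 45.8% for Pax6, 41.8% for Emx2, 30.3% for Lmo1, 21.1% for Otx1 and 19.1% for Nkx6-2.

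The pericytes of the same libraries served as a reference class for the same shares. Their definition set an upper limit on the UMIs of the glutamate transporters, so barcodes with more astrocyte RNA were left out of the class. Low shares in pericytes therefore do not give the level that free RNA reaches, which was not tested. Of the 8 factors found in astrocytes, 7 were in less than 1% of the thinned pericytes, with means of 0.894% for Meis2, 0.530% for Nkx6-2, 0.312% for Lhx2, 0.240% for Lmo1, 0.177% for Emx2, 0.123% for Otx1 and 0.104% for Pax6. In library 1, Lhx2 was in 0 of 639 thinned pericytes, where a count of 0, taken as at most 3 counts, allows a share of up to 0.469%. Nr2f1 stood apart, with 34.7%, 29.8% and 33.7% of the thinned pericytes, and these shares lay below those in astrocytes in each library.

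**Figure D1:**
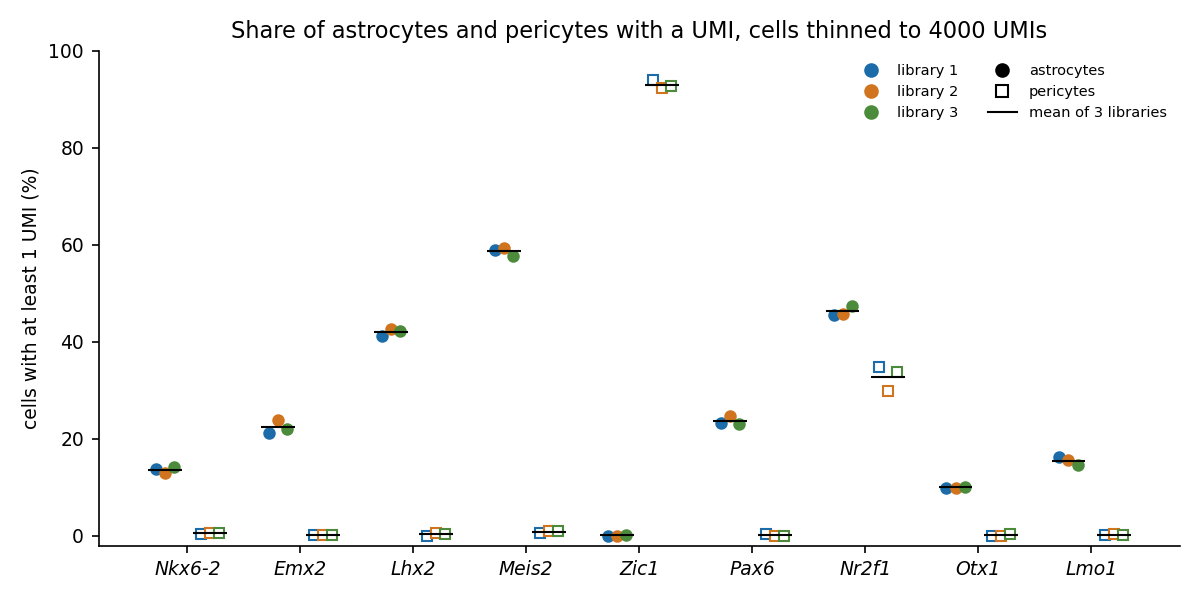
Share of cells with at least 1 UMI of each of the 9 genes after thinning to 4000 UMIs, per library (colours), in astrocytes (filled circles) and pericytes (open squares), in percent. The 3 libraries lie close together for each gene, Zic1 is at 92.3–94.1% in pericytes and under 0.3% in astrocytes, and Nr2f1 is high in both classes.

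Summed per library, 8 of the 9 genes were higher in astrocytes and Zic1 was lower (edgeR quasi-likelihood test with library as a block, Benjamini-Hochberg adjusted p under 0.05). The classes differ widely, since 42.8% of 15819 genes tested were higher in astrocytes and 36.2% lower, so the calls themselves are common and the sizes carry the information. Lhx2 stood at 0.906, 0.848 and 1.07 CPM in pericytes and at 153, 166 and 164 CPM in astrocytes. The fitted log2 fold change, after TMM scaling, was 7.62 (SE 0.15, edgeR adjusted p = 1.088e-26). SE here and below is the size of the log2 fold change divided by the square root of the F value of the edgeR test. It is not a directly estimated standard error and can be too small where counts are few. Before thinning, Lhx2 was found in only 4, 3 and 4 pericytes of libraries 1, 2 and 3. Meis2 differed by 7.38 on the log2 scale, Pax6 by 7.25, Emx2 by 7.05, Lmo1 by 6.63, Otx1 by 6.11 and Nkx6-2 by 5.30. Nr2f1 differed least, from 109, 104 and 129 CPM in pericytes to 172, 168 and 174 CPM in astrocytes, a log2 fold change of 0.81 (SE 0.06, edgeR adjusted p = 1.061e-12).

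Zic1 was the pericyte factor of the set, at 811, 809 and 796 CPM in pericytes and 0.302, 0.258 and 1.33 CPM in astrocytes. The log2 fold change was −10.15 (SE 0.13, edgeR adjusted p = 5.57e-31), and −11.24 without library 3, which held 37 of the 55 Zic1 UMIs found in astrocytes. Zic1 was in 94.1%, 92.3% and 92.8% of the thinned pericytes, so it marked nearly all of them. Of its paralogues, Zic4, its divergently placed neighbour, was found in 57.2%, 59.3% and 60.3% of the pericytes before thinning. Zic5 was found in both classes, in 11.6% to 12.4% of the astrocytes and 13.8% to 16.9% of the pericytes before thinning.

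The 35 astrocytes with Zic1 were 11, 7 and 17 cells in the 3 libraries. In libraries 1 and 2 each held a single UMI, and in library 3 there were 4 cells with at least 3 UMIs and a maximum of 13. Between 1 and 3 UMIs of Vtn and Rgs5, the most that the astrocyte class allowed, were found in 0, 2 and 6 of these cells. In libraries 2 and 3 this was 28.6% and 35.3% of them, against 7.21% and 10.9% of the other astrocytes, and the part of pericyte RNA in the Zic1 counts was not tested.

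Most astrocytes carried more than 1 of the 9 factors. The median was 2 factors per thinned astrocyte, 5.57%, 5.14% and 4.75% of the cells had none, and under 1% had 6 or more. Nkx6-2 was the most unevenly spread of the 8 factors found in astrocytes. Its variance over its mean across thinned cells was 2.41, 2.89 and 2.45, where independent counting gives a value near 1 for a gene at the same level in each cell. Meis2 had 1.61, 1.49 and 1.67, and the other 6 lay between 1.02 and 1.42. Nkx6-2 was in fewer cells than Lmo1 but reached at least 2 UMIs in 5.98% of the astrocytes, against 3.38% for Lmo1, and single cells held up to 8, 10 and 9 UMIs.

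To ask which factors were found in the same cells, the log2 odds ratio of co-detection was taken for each of the 28 pairs of the 8 factors within each library, at 4000 UMIs. Positive values mean that finding one factor raised the odds of finding the other. The sign was positive in 3 of 3 libraries for 11 pairs (39.3%) and negative in 3 of 3 for 8 pairs (28.6%). Among the 54189255 pairs of the 10411 genes found in at least 2% of thinned astrocytes, the corresponding shares were 19.9% and 15.9%. These genes were not matched to the factors for the share of cells holding them, and the part of this in the difference was not tested. With a mean of at least 0.5 in size, 2 of the 28 pairs were positive and 3 negative, against 3.66% and 2.45% of all gene pairs. Zic1 was below that limit and its 8 pairs rest on too few cells to read.

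All 7 pairs of Nkx6-2 were negative in 3 of 3 libraries. Nkx6-2 with Lmo1 had values of −1.16, −1.34 and −1.97, with 39, 22 and 16 cells holding both against 73.7, 47.0 and 50.9 expected from the shares. Nkx6-2 with Lhx2 had −0.80, −1.09 and −0.84, with 136, 83 and 107 cells holding both against 185, 128 and 147 expected. Nkx6-2 with Emx2 had −0.92, −0.80 and −0.79, with 60, 48 and 52 cells against 96.1, 71.5 and 77.2. These 3 mean values, −1.49, −0.91 and −0.83, lie beyond the 1st percentile of all gene pairs, −0.81. Nkx6-2 was nearer to independent of Meis2 (mean −0.38), Otx1 (−0.30), Pax6 (−0.30) and Nr2f1 (−0.13).

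Lhx2, Emx2 and Lmo1 were found together. Lhx2 with Lmo1 had log2 odds ratios of 0.84, 0.85 and 0.57, with 284, 200 and 180 cells holding both against 220, 155 and 150 expected. Emx2 with Lhx2 had 0.60, 0.59 and 0.47, with 342, 278 and 262 cells against 286, 236 and 228. Emx2 with Lmo1 followed at a mean of 0.34. Lhx2 with Lmo1 (mean 0.75) was just below the 99th percentile of all gene pairs, 0.78. Nr2f1 was positive in 3 of 3 libraries with Lmo1 (0.31), Lhx2 (0.30), Otx1 (0.26) and Emx2 (0.19), and Otx1 with Lhx2 (0.29) and Lmo1 (0.28). Pax6 had mixed signs with Lhx2, Emx2 and Lmo1, and was positive in 3 of 3 libraries with Otx1 (0.22) and Meis2 (0.10). Besides the Nkx6-2 pairs, Meis2 with Nr2f1 (−0.06) was negative in 3 of 3 libraries. The 10th and 90th percentiles of all gene pairs were −0.313 and 0.339. The means given for pairs of Nr2f1, Otx1 and Pax6, those with Nkx6-2 included, lie between these 2 values.

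Thinning sets the size of these values: without it Lhx2 with Lmo1 rose to 1.83 and 21 of the 28 pairs were positive in each library. Among hashtag singlets, which are fewer cells, 3 of the 7 Nkx6-2 pairs kept a negative sign in each library. There 9 of the 28 pairs had one sign throughout, against 19 among all thinned astrocytes. Mean values in singlets were −1.89, −0.88 and −0.66 for Nkx6-2 with Lmo1, Lhx2 and Emx2. They were 0.66 for Lhx2 with Lmo1, 0.44 for Emx2 with Lhx2 and 0.13 for Emx2 with Lmo1. The same hashtag calls gave 882, 761 and 819 doublets in libraries 1, 2 and 3. Doublets were not left out of the values from all astrocytes, and their part in those values was not tested.

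**Figure D2:**
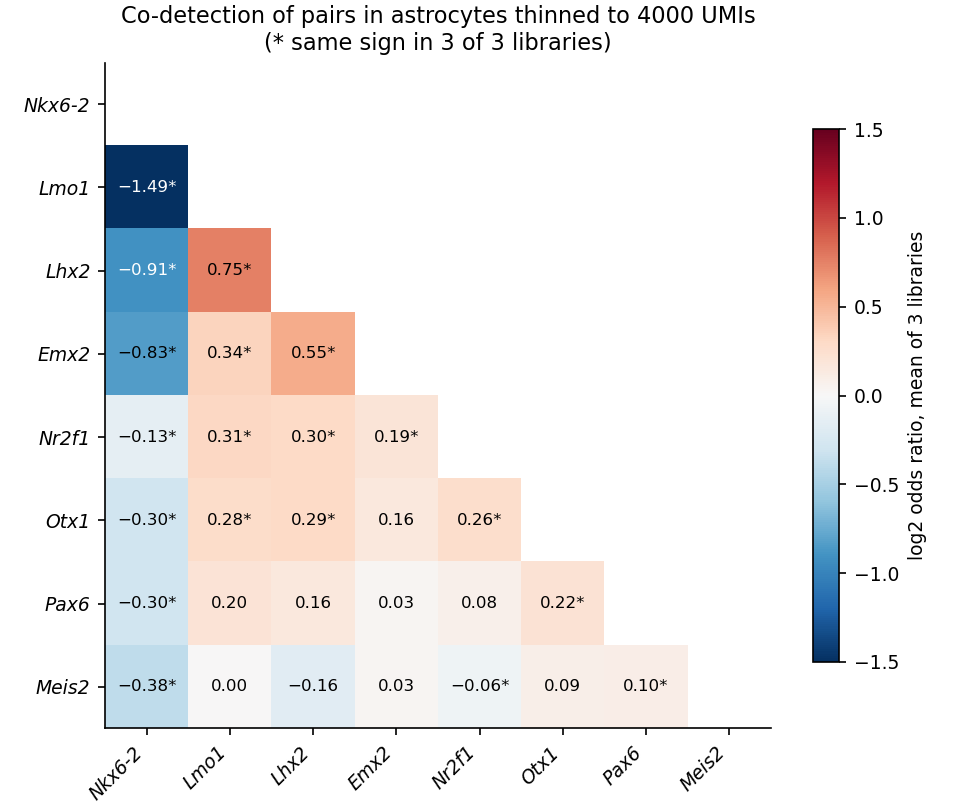
Mean log2 odds ratio of co-detection over 3 libraries for each pair of 8 factors in astrocytes thinned to 4000 UMIs (colour scale, with values in the cells). An asterisk marks pairs with the same sign in 3 of 3 libraries, and the Nkx6-2 pairs are all negative while Lhx2, Emx2 and Lmo1 are positive with each other.

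Agt encodes angiotensinogen, a secreted protein made by astrocytes and known for high levels in the hypothalamus and other ventral regions. To set the factors against it, 1207, 993 and 1036 astrocytes with at least 3 Agt UMIs (Agt-high) were summed per library and compared with 1225, 720 and 868 astrocytes with none (Agt-0). Nkx6-2 was 9.90, 7.63 and 8.40 CPM in Agt-0 cells and 121, 105 and 112 CPM in Agt-high cells, without overlap, as were 16.5% of the genes tested in that direction. The log2 fold change was 3.72 (SE 0.09, edgeR adjusted p = 2.855e-22). Over all genes tested, only the chloride channel gene Clic6, picked out after its value was seen, had a larger called log2 fold change, at 3.97. Nkx6-2 was 1 of 8 factors tested that rose, and 12.5% of 14541 genes tested rose. The genes were chosen with earlier results of these data known, so these values describe Nkx6-2 and are no independent test of it. The same holds for the other factors in this comparison and for the co-detection values above.

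Of the 8 factors, 3 fell, against 13.7% of the genes tested. Lmo1 went from 60.4, 51.1 and 54.9 CPM in Agt-0 cells to 39.1, 37.8 and 35.3 CPM in Agt-high cells, a log2 fold change of −0.54 (SE 0.08, edgeR adjusted p = 2.497e-06). Meis2 went from 332, 309 and 339 CPM to 258, 257 and 243 CPM, a log2 fold change of −0.34 (SE 0.06, edgeR adjusted p = 0.000181). Lhx2 went from 165, 166 and 174 CPM to 121, 153 and 147 CPM, a log2 fold change of −0.24 (SE 0.07, edgeR adjusted p = 0.008628). The 2 classes did not overlap for any of these 3 genes, and 21.9% of all genes tested were lower in Agt-high cells without overlap. Without library 3 the adjusted p was 0.06374 for Meis2 and 0.08983 for Lhx2 and 2 factors stayed called, whereas Lhx2 also had 0.1066 among hashtag singlets and 0.06707 with at least 50 Slc1a2 and Slc1a3 UMIs.

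The other 4 factors tested did not pass. Emx2 had a log2 fold change of −0.11 (edgeR adjusted p = 0.277), Pax6 −0.07, Otx1 0.03 and Nr2f1 0.02. With Agt counted after thinning to 4000 UMIs, Emx2 had −0.26 and passed (edgeR adjusted p = 0.02462). With Agt-high set at 10 or more UMIs, Emx2 (−0.78) and Pax6 (−0.36) passed too, and Lmo1 had −2.06, Lhx2 −0.98, Meis2 −0.45 and Nkx6-2 4.91. Zic1 was below the filter on low counts.

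**Figure D3:**
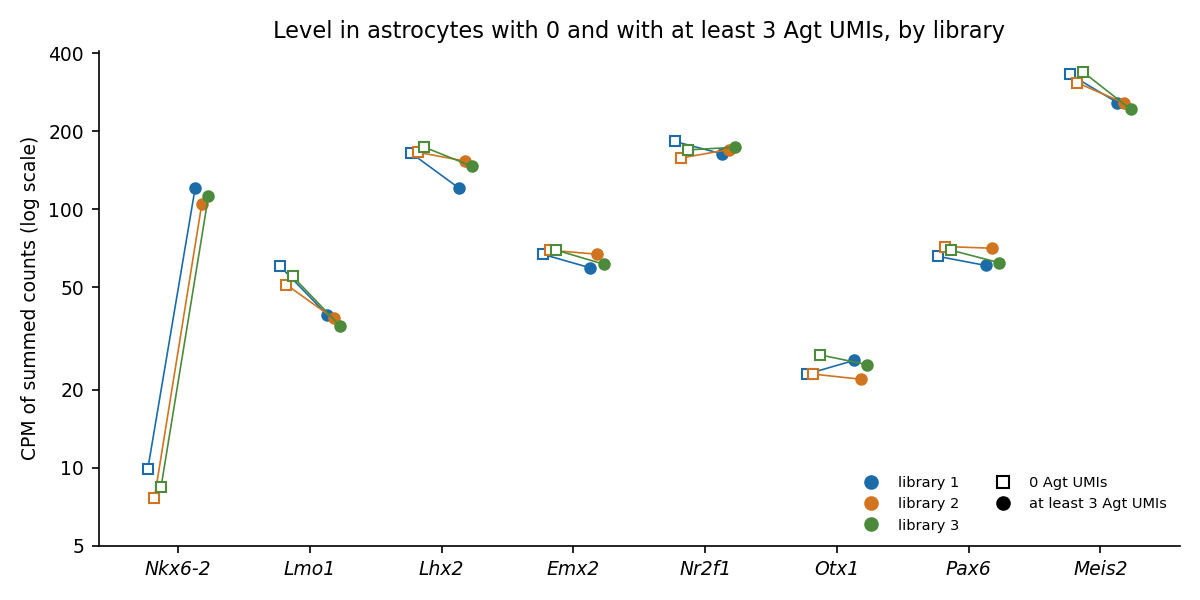
Level of each factor in CPM (log axis) in Agt-0 (open squares) and Agt-high astrocytes (filled circles), with 1 line per library. Nkx6-2 goes from 7.63–9.90 to 105–121 CPM, while Lmo1, Meis2 and Lhx2 are lower in the Agt-high cells of each library.

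Other properties moved with the Agt classes. The median depth was 8844, 9349 and 8715 UMIs in Agt-0 cells and 9893, 10871 and 10328 in Agt-high cells. Cells with at least 6% mitochondrial UMIs were 14.9%, 16.3% and 19.4% of the Agt-0 cells and 0.663%, 1.11% and 0.965% of the Agt-high cells. With those cells removed the same 4 factors were called. The 4 progenitor markers Dcx, Sox11, Mki67 and Top2a summed to 163–245 CPM in Agt-0 cells and 13.7–18.9 CPM in Agt-high cells, and the 8 neuron markers to 20.2–35.9 and 9.31–10.4 CPM. Few cells held Dcx, Mki67 or Top2a, namely 25, 10 and 15 Agt-0 cells (2.04%, 1.39% and 1.73%) and 3, 1 and 1 Agt-high cells. Sox11 was in 12.7%, 11.25% and 11.9% of the Agt-0 cells and 13.1%, 12.2% and 15.1% of the Agt-high cells. Without the astrocytes holding Dcx, Mki67 or Top2a, the 4 factors stayed called and Emx2 (−0.21, edgeR adjusted p = 0.02987) joined them.

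At matched depth, the share of astrocytes with a factor was followed over Agt counts of 0, 1, 2–3 and at least 4 UMIs, given as means over 3 libraries. Nkx6-2 was in 4.68%, 9.32%, 19.9% and 50.2% of the cells in that order. Lmo1 was in 18.2%, 16.9%, 14.0% and 3.81%. Lhx2 was in 44.5%, 45.8%, 40.3% and 26.9%, so its fall lay in the upper bins. Emx2 was in 23.1%, 24.6%, 21.8% and 16.01%, and Meis2 in 61.8%, 58.7%, 55.9% and 50.3%. Otx1 was in 10.8% of the lowest and 8.49% of the highest bin, Nr2f1 in 45.1% and 43.7% and Pax6 in 23.8% and 21.0%. From the lowest to the highest bin, Nkx6-2 was higher and Lmo1, Lhx2, Emx2, Meis2 and Otx1 were lower in each library, and Nr2f1 and Pax6 had no common direction. The share of all genes with a common direction was not taken for these bins. The number of factors with a common direction is therefore not read as particular to them.

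**Figure D4:**
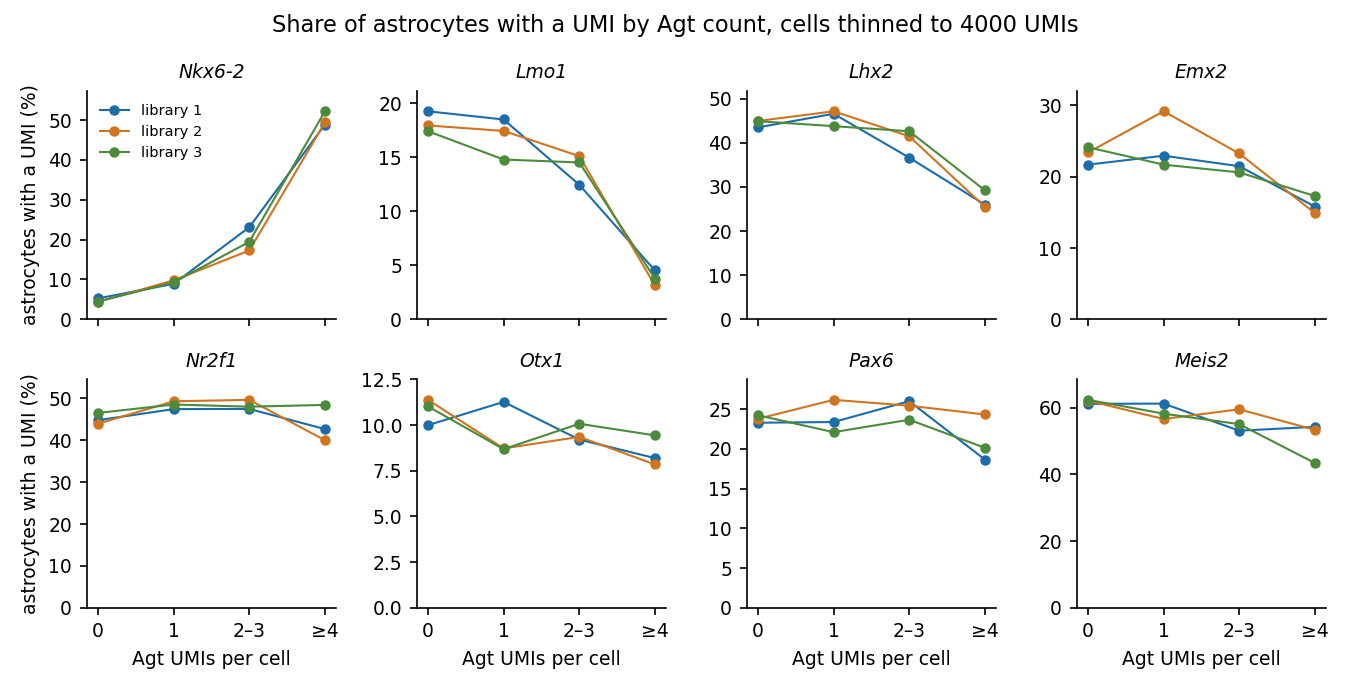
Share of thinned astrocytes with at least 1 UMI of each factor, in percent, by the number of Agt UMIs in the same cell (0, 1, 2–3, ≥4), with 1 line per library. Nkx6-2 climbs to about the level of Meis2 in the highest bin, and Lmo1 falls to 3.81% on average.

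The low co-detection of Nkx6-2 was also taken within the Agt classes, an alternative chosen after the values above were seen. In thinned astrocytes with 2 or more Agt UMIs, Nkx6-2 with Lmo1 had log2 odds ratios of −0.73, −1.79 and −3.17. In thinned astrocytes with no Agt, the same pair had −0.84, −0.26 and 0.01, where 16.6, 8.43 and 9.23 shared cells were expected, too few to read a direction. Nkx6-2 with Lhx2 averaged −0.83 and −0.32 and Nkx6-2 with Emx2 −0.71 and −0.69 in these 2 classes, each negative in 3 of 3 libraries. Without Agt the Emx2 pair was similarly sparse, with Nkx6-2 in 86, 47 and 53 cells and Emx2 in 356, 253 and 287. These were among 1641, 1081 and 1189 thinned astrocytes, so the direction of that pair is not read there either. Of the 7 Nkx6-2 pairs, 5 were negative in each library with 2 or more Agt UMIs and 3 without Agt, the sparse Emx2 pair included. The share over all gene pairs was not taken within these classes, so these numbers of pairs are not read as particular to Nkx6-2. Lhx2 with Lmo1 stayed at 0.66 without Agt and 0.89 with 2 or more Agt UMIs, and Emx2 with Lhx2 at 0.57 and 0.47.

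The genes most like each factor were taken by the correlation of log2(UMIs + 1) across thinned astrocytes, averaged over 3 libraries, among 8068 genes. The cells share their library and depth, and the values are descriptions. Nkx6-2 had the highest values, 0.463 with Gria1, which encodes an AMPA receptor subunit, 0.408 with Agt and 0.393 with Itih3. Lhx2, Lmo1 and Emx2 had the same 3 genes at the top, the glycolytic enzyme Aldoc (0.295, 0.223 and 0.139) and the metallothioneins Mt1 (0.286, 0.212 and 0.136) and Mt3 (0.285, 0.219 and 0.134). Meis2 was led by Zbtb20 (0.129), Msi2 and Ctnnd2 (each 0.125). Without the cells with at least 6% mitochondrial UMIs, Zbtb20 stayed in the top 3 of Meis2, and B3galt1 and Grm3 replaced Msi2 and Ctnnd2. Nr2f1 was led by Actb (0.116), Aldoc (0.114) and Ptma (0.113). The leading values were 0.0536 for Pax6, with Ndufb3, Cd302 and Sox2 at the top, and 0.0562 for Otx1, with Tubb2a, Atp5g1 and Ppp1r2. Without the same high-mitochondrial cells, Ndufa4 stood in place of Sox2 for Pax6. For Zic1, Hmgb3, Rbms3 and Col4a2 led with values up to 0.061, which are too weak in such sparse counts to read.

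Other factors of the same families were placed in the Agt comparison by fixed lists, in which a gene may stand in more than 1 list. Over all 14541 genes tested, 12.5% rose and 13.7% fell. Of 28 diencephalic and caudal factors only 3 had enough counts to test. Of these, Nkx2-2, a ventral homeodomain factor (1.03 on the log2 scale), and Rax, a homeodomain factor of the hypothalamus and retina (0.93), rose, as Nkx6-2 did. The third, Tcf7l2, was not called. The list median over these 3 genes was 0.93, the value of Rax itself, against 0.00 over all genes tested. Of 19 subpallial factors, 10 were tested and 1 rose, Six3 (0.49), while 5 fell. These 5 were the homeodomain factors Gsx1 and Gsx2 (−1.25), the forkhead factor Foxp2 (−1.40), Ebf1 (−2.19) and Zic5 (−0.51), and the list median was −0.63. Ebf1 was sparse, at 1.65, 0.144 and 1.76 CPM in Agt-0 cells and 0.153, 0.174 and 0.435 CPM in Agt-high cells. It did not fall in library 2. In pericytes Ebf1 stood at 1728 to 1789 CPM, Foxp2 at 29.7 to 42.1 CPM and Zic5 at 33.7 to 38.4 CPM. The part of pericyte RNA in these counts was not tested.

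Of 12 pallial factors, 5 were tested and 2 fell, the T-box factor Eomes and the Wnt effector Lef1 (−2.32), and the list median was −0.37. Lef1 was sparse, at 2.95, 0.288 and 3.76 CPM in Agt-0 cells and 0.153, 0.783 and 0.435 CPM in Agt-high cells. It was higher in the Agt-high cells of library 2. In pericytes Lef1 stood at 79.7 to 83.5 CPM, and the part of pericyte RNA in its counts was not tested. Eomes and Gsx1 had no UMI in Agt-high cells. With the floor of 3 counts taken over the group, they were at least 83.1-fold and 32.2-fold lower there, and at these bounds the medians of their lists stayed the same. These bounds are pooled over the libraries. In the Agt-0 cells of libraries 1, 2 and 3, Eomes had 30, 1 and 152 UMIs and Gsx1 had 34, 8 and 29. The 13 and 18 Agt-0 cells that held Eomes and Gsx1 all carried Dcx, Mki67 or Top2a. Without the cells holding any of these 3 markers, 16 of the 21 named genes of these lists stayed called. The median was then −0.09 over 8 subpallial factors tested, of which 1 rose and 2 fell, and −0.12 over 4 pallial factors, of which 1 fell. Of all 14266 genes tested in that fit, 1425 rose and 1606 fell. Eomes, Gsx1 and Ebf1 were not tested, and Gsx2 (−0.72, edgeR adjusted p = 0.07794) and Nfix (0.03, edgeR adjusted p = 0.8132) were not called.

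Of 18 paralogues of the 9 genes, 8 were tested, Nr2f6 (0.46) and Nr2f2 (0.37) rose and Zic5 (−0.51) fell. Nr2f2 encodes COUP-TFII, and its difference from Nr2f1, which had 0.02, was not tested. In pericytes Nr2f2 stood at 818 to 824 CPM and Nr2f6 at 47.1 to 56.6 CPM, against 113 to 123 and 10.2 to 14.0 CPM in astrocytes. The part of pericyte RNA in their counts was not tested. Of 13 cofactors, 12 were tested. Ldb2, which bridges LIM-homeodomain and LIM-only proteins such as Lhx2 and Lmo1, rose from 21.5, 20.2 and 19.3 CPM to 44.3, 50.7 and 50.0 CPM (log2 fold change 1.26, SE 0.09, edgeR adjusted p = 4.16e-12). Pbx3 (−0.59), a partner of Meis proteins, and the corepressor Tle1 (−0.34) fell. All 22 pan-astrocyte factors were tested, and 8 rose and 8 fell with a median of 0.00, against 4 and 7 without the cells holding Dcx, Mki67 or Top2a. Hey2 (0.54), Hes1 (0.48) and Klf15 (0.35) were among the 8 that rose, and Nfix (−0.43), Zbtb20 (−0.38) and Glis3 (−0.31) among the 8 that fell. Of the 22, 19 were called higher and 3 lower in astrocytes than in pericytes. Hey2 stood at 155 to 172 CPM in pericytes and 15.8 to 18.7 CPM in astrocytes, and Hes1 at 284 to 296 and 62.2 to 82.3 CPM. The part of pericyte RNA in their counts was not tested.

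To compare the behavioural groups, hashtag singlets were summed for each of 16 mice, 4 per group, with 45 to 228 astrocytes per mouse, and levels are given as CPM after TMM scaling. The hashtag signal was weak, and the singlet calls behind these sums changed with the calling setting. Among these mice, library 2 held no NoFR mouse and library 3 no FC mouse. No factor passed in any of the 6 pairs of groups, and edgeR called 0 of 10140 genes tested (0.0% in each pair). The unadjusted p was under 0.05 for 3.88% of the genes in FC against NoFC, 4.91% in NoFR against NoFC, 3.28% in FR against NoFC, 5.31% in NoFR against FC, 4.11% in FR against FC and 3.77% in FR against NoFR. DESeq2 called 1 gene when FC was set against NoFC and 1 when NoFR was set against FC, neither of them among the 9 genes. Of the 8 factors tested, Nkx6-2, Meis2 and Pax6 had such an unadjusted p in at least 1 pair, and each of these pairs involved the NoFR mice, whose values are shared between the comparisons.

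Nkx6-2 stood at 105, 65.1, 63.4 and 38.3 CPM in the NoFR mice and 47.2, 53.0, 24.4 and 43.8 CPM in the FC mice. It was 76.2, 63.6, 55.6 and 25.6 CPM in the NoFC mice and 63.1, 30.5, 53.5 and 57.0 CPM in the FR mice, so all 4 groups overlapped. The first pair of values in the NoFR and FC groups came from library 1, where NoFR was higher, and the other values came from library 3 for NoFR and library 2 for FC. With library as a term, NoFR against FC gave a log2 fold change of 0.79 (edgeR p = 0.001924, adjusted p = 0.891; exact permutation p = 0.114). Without the NoFR mouse at 105 CPM it was 0.49 and the unadjusted p was no longer under the threshold.

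Meis2 was at 364, 254, 285 and 344 CPM in the NoFC mice and 236, 249, 232 and 302 CPM in the NoFR mice. This was a log2 fold change of −0.32 (edgeR p = 0.006012, exact permutation p = 0.114), and NoFR against FC gave −0.25 (edgeR p = 0.04595, exact permutation p = 0.171). Pax6 averaged 69.3 ± 9.41 CPM in NoFC, 56.2 ± 4.50 in NoFR and 69.4 ± 11.8 in FR (SD, n = 4 mice each). NoFR against NoFC gave −0.32 (edgeR p = 0.04261, exact permutation p = 0.0857) and FR against NoFR 0.31 (edgeR p = 0.03588, exact permutation p = 0.143). Over 54 two-sided exact permutation tests of the 9 genes and 6 pairs, the lowest p was 0.0857 (Benjamini-Hochberg adjusted 0.904), and no pair of groups was without overlap. With the hashtag quantile at 0.95 the log2 fold change was 0.50 for Nkx6-2 in NoFR against FC, −0.13 for Meis2 in NoFR against NoFC and 0.16 for Pax6 in FR against NoFR. Without the mitochondrial filter the same values were 0.87, −0.14 and 0.19.

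**Figure D5:**
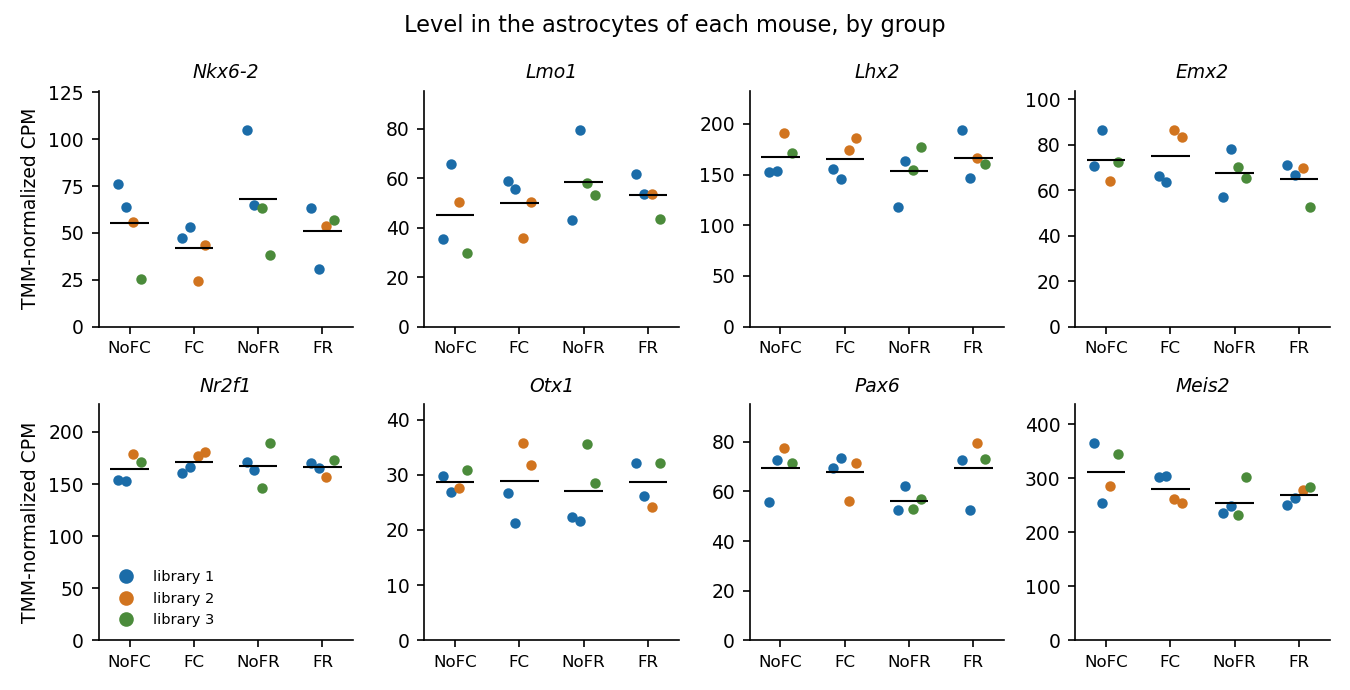
Level of each factor in CPM for each mouse after TMM scaling (1 point per mouse, coloured by library, 4 per group), with a bar at the mean of the group. The groups NoFC, FC, NoFR and FR overlap for each factor, and 1 NoFR mouse is at 105 CPM for Nkx6-2.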

How the data were processed

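Deposited files held whole-number UMI counts per gene and barcode and per hashtag. Per the labels the authors used Cell Ranger 3.0 and mm10, whereas the file header names 7.0.0; a strand setting is not stated there. The authors removed cells under 100 genes or over 6% mitochondrial counts; all barcodes were used here, and these filters entered alternatives and the comparison of mice. Counts were summed per library or mouse and tested with edgeR 4.0.16 in R 4.3.3 (TMM, filterByExpr, quasi-likelihood, library as a block, Benjamini-Hochberg over all genes tested), with DESeq2 1.42.0 as an alternative. The scripts were tested on simulated counts. The classes compared came from the same 3 libraries, which pairs them. Whether libraries or mice were processed on separate days is not stated, so p-values measure the spread between these samples.

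Cells were thinned to 4000 UMIs, and 0.5 was added to each cell of the co-detection count. Hashtags were called with HTODemux in Seurat 5.3.0 (quantile 0.99), after 1 hashtag with under 0.05 UMIs per barcode was left out; 1594, 1222 and 1633 barcodes were singlets. No other doublet caller was run. One progenitor marker is not reported here. CPM of classes were taken from summed counts without scaling factors. Libraries held 31700569 to 42350059 UMIs. The genes and lists were chosen with earlier results of these data known. All 9 genes were named, with the 3 most alike genes of each, the called list genes with the largest changes (at most 6 per list) and, between groups of mice, the genes with an unadjusted p under 0.05. Gene positions are from GENCODE vM21. Promoter sequences are from RefSeq, where 8 of the 9 genes matched and Otx1 did not.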

Additional observations from a re-analysis of the deposited data

How the results depend on the processing

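All 9 genes were called between astrocytes and pericytes under each alternative run, also without the replicate block that pairs the classes by library (9 called). Between the Agt classes 4 factors were called in the reported fit, 4 without the replicate block, 4 by DESeq2, and 2 to 4 with 1 library left out, the 2 being without library 3. With at least 50 Slc1a2 and Slc1a3 UMIs or in hashtag singlets 3 were called, without Lhx2, and with Agt counted after thinning 5, with Emx2. No other call changed with the block. Leaving out 1 library gave 25 to 29 pairs of one sign, against 22 of all 36 pairs over 3 libraries (19 of the 28 without Zic1 and 3 with it), since 2 libraries have fewer signs to match. Leaving out 1 mouse gave 0 called factors in each case. Fitting without a filter on low counts gave 1, Nkx6-2 in NoFR against FC (0.77, edgeR adjusted p = 0.009283), and the cause was not tested. The share of all genes called in that fit is not given here, so the call is not read as particular to Nkx6-2. Dropping the filter also lowered the edgeR adjusted p of Nkx6-2 in astrocytes against pericytes, from 1.256e-21 to 7.777e-207. The median share over the 9 genes moved with depth by construction, from 22.4% to 11.97% at 2000 UMIs, 38.1% at 8000 UMIs, 41.8% without thinning and 4.54% at 2 or more UMIs. Of the factors not called between the Agt classes, Pax6 turned to 0.0061 with Agt counted after thinning. Nr2f1 turned to −0.13 at 10 or more Agt UMIs and ranged from −0.0357 without library 2 to 0.0895 without library 1. Otx1 ranged from −0.0785 without library 1 to 0.1019 without library 3 and turned to −0.0777 at 10 or more Agt UMIs, −0.0168 with at least 50 Slc1a2 and Slc1a3 UMIs, −0.2537 with Agt counted after thinning and −0.0341 without progenitor markers, a setting chosen after seeing the data. Over all genes in that comparison, 1811 rose and 1996 fell, against 758 and 990 by DESeq2, 1093 and 1150 with Agt counted after thinning, 939 and 962 in hashtag singlets, 1115 and 1368 with at least 50 Slc1a2 and Slc1a3 UMIs and 1147 and 1261 without library 3. Factors found in few cells at 4000 UMIs, such as Otx1, are limited by depth.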

Other observations

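Transcripts annotated on the strand opposite to the patterning genes were themselves found in astrocytes. Before thinning, Emx2os, which overlaps Emx2, was in 46.1% to 51.9% of the astrocytes of a library, and A830082K12Rik, which overlaps Nr2f1, in 56.8% to 59.6%. Inpp5a, which overlaps Nkx6-2, was in 27.5% to 28.6%, whereas Pax6os1 was in 1.4% to 2.3%. No strand setting was stated, so it is not known whether reads of Emx2, Nr2f1 and Nkx6-2 were kept apart from those of these partners. Meis2 and Otx1 have no such partner in the annotation.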
